A study of Mus musculus with 14 samples.

Results

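The expression difference that accompanied MYCi975 was examined across both states of a second compound, TMP195, in mouse tumors of LLC1, a line that stems from Lewis lung carcinoma. All 14 of the 14 libraries entered: 7 came from tumors given MYCi975, either alone (4 libraries) or in combination with TMP195 (3 libraries), and 7 came from tumors not given it, either vehicle with DMSO (4 libraries) or TMP195 alone (3 libraries). MYCi975 alone and TMP195 alone were dosed at 50 mg/kg, and treatment lasted 16 days in every group. The sources used here give no doses for the combination, and the labels name no genetic change in any group. The comparison asks which genes lay on the same side in both backgrounds, that is in MYCi975 against vehicle and in the combination against TMP195, which share no library. The material is described both as RNA from an enriched tumor population and as a bulk suspension, and no label ties a library to its own animal. The spread behind the p-values is therefore that between libraries, which can be partly technical.

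MYC is a transcription factor that binds DNA as a dimer with MAX, mostly at E-box motifs, and promotes ribosome production, nucleotide synthesis, glycolysis and cell division. MYCi975 is a small molecule developed to bind MYC, disturb its pairing with MAX and favor its degradation. TMP195 blocks the class IIa histone deacetylases, a family made up of HDAC4, HDAC5, HDAC7 and HDAC9. MYCi975 acts on the MYC protein, so the level of Myc RNA does not report whether the target was hit.

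Values are the authors' expression values on a log2 scale after a variance-stabilizing transformation, whose lowest value in every library, 4.05, marks the floor of the table. A gene was tested when its mean over the 14 libraries lay more than 1 log2 unit above that floor, which left 13711 of 21152 genes. Sequencing depth is unknown. Per library, 880 to 2954 genes lay at the floor. Over the 14 libraries the mean level was 8.22 for Krt8 and 8.38 for Krt18, both epithelial keratins, 14.38 for the mesenchymal filament gene Vim, and 10.60 for Ptprc, which encodes the leukocyte antigen CD45. Epcam and Nkx2-1, markers of epithelium and of lung epithelium, were not among the tested genes. Ptprc ran from 9.65 in combination replicate 1 to 12.07 in MYCi975 replicate 2, which was also the library with the most genes at the floor. In such bulk samples fewer cells of a type and less RNA per cell cannot be told apart.

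With TMP195 as a term in the model, the 5 genes with the smallest p among those higher with MYCi975 in both backgrounds were Oxnad1, the EGF receptor inhibitor Errfi1, the cAMP-activated Rap exchange factor Rapgef3, the chaperonin subunit Cct7 and the Sprouty gene Spry2. Ranked the same way, the 5 lower ones were the coactivator subunit Taf6l, the secreted protease Adamts7, the proton pump subunit Atp6v0a2, the Eph receptor Ephb6 and the integrin subunit Itga9. None of the 13711 genes passed an adjusted p of 0.05 in limma (0 genes, 0%), and the smallest adjusted p was 0.9999. Without adjustment 376 genes (2.74%) had p under 0.05, with 208 (1.52%) on the higher and 168 (1.23%) on the lower side. A share of 5% would be 686 genes. The median absolute difference over all tested genes was 0.08 log2 units, less than the median standard error of 0.13, and the median 95% interval reached 0.27 to either side. Leaving out MYCi975 replicate 2 raised the number with unadjusted p under 0.05 to 806, of which 302 were higher and 504 lower, again with 0 genes past the adjusted threshold.

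Both backgrounds gave the same sign for 6064 genes (44.2%): 3223 (23.5%) were higher with MYCi975 in both and 2841 (20.7%) were lower in both. Across genes, which are not independent replicates and share their libraries, the differences in the separate backgrounds correlated at a Pearson r of -0.17 and a Spearman rho of -0.17. Of the 457 genes with unadjusted p under 0.05 without TMP195, 192 (42.0%) had the same sign with it, and of the 603 such genes with TMP195, 246 (40.8%) had the same sign without it. By expression level, the share with the same sign was 46.2%, 43.7% and 42.7% in the low, middle and high parts of the tested genes, split into equal parts by mean level. Unadjusted p under 0.05 in both backgrounds in the same direction was reached by 14 genes (0.102%), and by 13 genes in opposite directions. The count of 14 was 6 without vehicle replicate 1, 8 without TMP195 replicate 2 and 24 without MYCi975 replicate 2 or without TMP195 replicate 3.

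**Figure D1:**
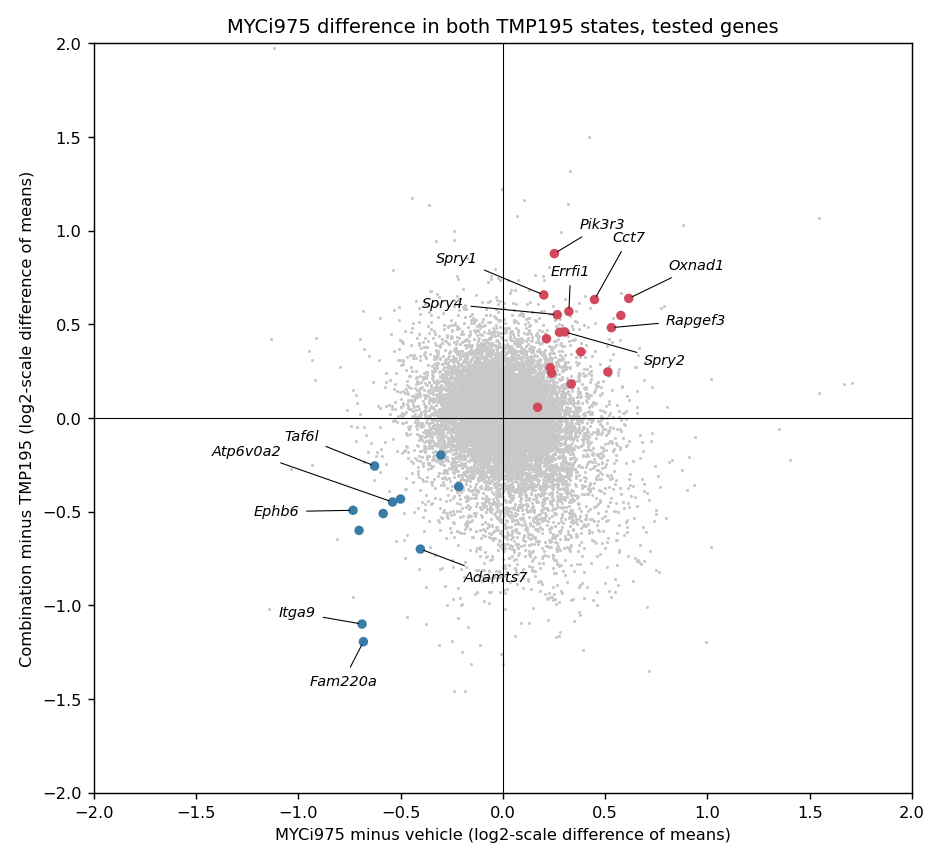
Log2-scale difference of MYCi975 against vehicle (horizontal axis) and of the combination against TMP195 (vertical axis), 1 point per tested gene, with 3 genes outside the plotted range of 2 units to either side. The 28 genes followed here as the leading ones are colored (red higher, blue lower) and a part of them is named. The cloud of all genes leans from upper left to lower right (r = -0.17), while the named genes were picked for lying in the upper right and lower left corners.

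The 14 genes that reached unadjusted p under 0.05 in both backgrounds in 1 direction, named here after their values were seen, were Dyrk3, Oxnad1, Spry2, Rapgef3, Strn, Meis2, Errfi1, Cct7, Dnhd1 and Edrf1 on the higher side and Adamts7, Atp6v0a2, Itga9 and Fam220a on the lower side. A second count took genes whose libraries did not overlap in either background. Every library with MYCi975 lay above its background's controls for 10 genes (0.0729%), namely Oxnad1, Errfi1, Rapgef3, Spry4, Nat14, AW549877, Senp2, Ppdpf, Slc22a15 and Usp15. Every such library lay below for 3 genes (0.0219%), namely Taf6l, Adamts7 and Man1b1. For a gene without overlap an exact permutation test within each TMP195 state returns the smallest two-sided p that its 1400 arrangements allow, 0.00143, so the p adds nothing to the count. With 1 library left out, which makes the condition easier to meet, the counts ran from 12 to 21 higher and from 5 to 13 lower, and without the 2 libraries with the highest Ptprc they were 39 and 26.

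Oxnad1, named for an oxidoreductase domain that binds NAD, had the smallest p of all genes in the main effect. Its level was 6.42, 6.44, 6.29 and 6.12 in the vehicle libraries and 6.99, 6.45, 6.94 and 7.34 in the MYCi975 libraries. With TMP195 alone it was 5.89, 6.08 and 5.82, and in the combination 6.40, 6.84 and 6.47. All MYCi975 libraries lay above all vehicle libraries, though MYCi975 replicate 2 by only a small margin, and all combination libraries lay above all TMP195 libraries. The TMP195 libraries were the lowest of the 4 groups, and the combination (mean 6.57) stood closer to vehicle (mean 6.32) than to MYCi975 alone (mean 6.93). The difference with MYCi975 was 0.63 log2 units (SE 0.13, 95% interval 0.35 to 0.90), 0.62 without TMP195 and 0.64 with it. Its unadjusted limma p was 0.000182, its adjusted p was 0.9999, and without MYCi975 replicate 2 the difference was 0.71 with an adjusted p of 0.173.

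Errfi1, also known as MIG6, encodes a feedback inhibitor that binds the kinase domain of EGF receptor family members. Its level was 9.92, 10.04, 10.05 and 10.05 with vehicle and 10.49, 10.32, 10.42 and 10.12 with MYCi975. It was 9.94, 9.79 and 10.04 with TMP195 and 10.34, 10.41 and 10.73 with the combination. The vehicle libraries were tightly grouped and lay below every MYCi975 library, and the same order held against TMP195. The difference was 0.43 (SE 0.09, 95% interval 0.24 to 0.62), 0.32 without TMP195 and 0.57 with it.

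The Sprouty proteins restrain signaling from growth factor receptors to RAS and MAP kinases, and their genes are switched on by that same signaling. Spry4 was 8.72, 8.91, 8.92 and 8.74 with vehicle against 9.24, 8.95, 9.17 and 8.999 with MYCi975, and 8.81, 8.42 and 8.71 with TMP195 against 9.55, 9.09 and 8.95 in combination replicates 3, 2 and 1. The groups did not overlap in either background, and the Spry4 difference was 0.39 (SE 0.11), 0.27 without TMP195 and 0.55 with it. Spry2 was 8.0, 8.32, 8.21 and 8.56 with vehicle against 8.71, 8.59, 8.47 and 8.52 with MYCi975, so vehicle replicate 4 lay among the treated libraries. With TMP195 it was 8.21, 8.15 and 8.16, below all 3 combination libraries at 8.72, 8.71 and 8.46. The Spry2 difference was 0.37 (SE 0.09), 0.30 and 0.46 in the 2 backgrounds. Spry1, added after the values were seen, differed by 0.40 (SE 0.15), mostly in the background with TMP195 (0.66 against 0.20), and the difference between backgrounds had an unadjusted limma p of 0.14.

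A list of 18 genes for feedback inhibitors of receptor tyrosine kinases was drawn up after these genes had been seen, so its counts are a description of how far the pattern reached and support nothing. Of its 17 tested members 10 were higher in both backgrounds and 0 were lower in both, beside 23.5% and 20.7% of all tested genes, and the median difference was 0.16 beside 0.0021 over all genes. Without TMP195 replicate 2 that median was 0.10. Members with unadjusted p under 0.05 numbered 4, which were Errfi1, Spry1, Spry2 and Spry4. Dusp6, a MAP kinase phosphatase that often serves as a readout of the pathway, differed by 0.06, and Dusp4 by -0.08. Spred1 and Spred2, relatives of the Sprouty genes, differed by -0.02 and 0.04. In a second list of 9 tested genes that report MAP kinase activity, 4 were higher in both backgrounds and the median difference was 0.06. The transcription factor genes Etv4 and Etv5 of that list differed by less than 0.005 in size and by -0.13.

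The promoter of Errfi1 is shown because its second RefSeq start site was the only window found for Errfi1, Spry1 and Spry2 that held the cAMP response element TGACGTCA. That motif stood in 1.79% of the 32851 RefSeq promoter windows of 300 bases, counting both strands. It stood in 3.61% of the 9570 tested genes that had a window. Among leading genes with a window it stood in 2 of 15 higher ones (Errfi1 and Senp2) and 1 of 7 lower ones (Fam220a). The Errfi1 stretch is chr4:150854820-150855069 on the plus strand of GRCm38.p6, the 250 bases before the start site. The motif is in capitals, 51 bases before that site.
Errfi1: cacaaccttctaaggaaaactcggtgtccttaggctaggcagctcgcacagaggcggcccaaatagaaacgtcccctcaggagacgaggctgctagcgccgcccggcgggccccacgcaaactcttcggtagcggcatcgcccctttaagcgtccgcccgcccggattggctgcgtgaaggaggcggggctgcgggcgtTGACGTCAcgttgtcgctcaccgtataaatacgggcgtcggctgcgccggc
The match describes these letters only, and no value here bears on whether a factor bound there.

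Rapgef3 encodes EPAC1, an exchange factor for RAP GTPases that cAMP activates directly. Its level was 6.42, 6.31, 5.97 and 5.98 with vehicle against 6.87, 6.54, 6.68 and 6.71 with MYCi975, and 6.44, 6.30 and 6.42 with TMP195 against 7.04, 6.51 and 7.05 in the combination. No library given MYCi975 fell within the range of its controls. The difference was 0.51 (SE 0.12, 95% interval 0.27 to 0.75) and of like size without TMP195 (0.53) and with it (0.48). Pik3r3, a regulatory subunit of phosphoinositide 3-kinase, differed by 0.52, but by 0.25 without TMP195 and 0.88 with it, and the unadjusted limma p of that gap was 0.024 (adjusted p 0.911 or above for every gene).

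Cct7 encodes 1 subunit of TRiC, the ring-shaped chaperonin that folds actin, tubulin and many other proteins. Its level was 9.33, 9.64, 9.63 and 9.56 with vehicle and 10.21, 10.27, 9.97 and 9.50 with MYCi975, where replicate 4 lay within the vehicle range. In the other background it was 9.34, 9.30 and 9.72 with TMP195 and 10.22, 10.22 and 9.82 in the combination, with no overlap. The difference was 0.53 (SE 0.12). Over the 8 TRiC genes, a list added after the values were seen, the median was 0.03, with Cct3 next highest at 0.14 and Cct5 at -0.07. That median was -0.07 without TMP195, where 3 were higher, and 0.18 with it, where all 8 were higher. In both backgrounds 3 were higher (23.5% of all tested genes). Without MYCi975 replicate 2 that count was 7 and the median 0.10.

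**Figure D2:**
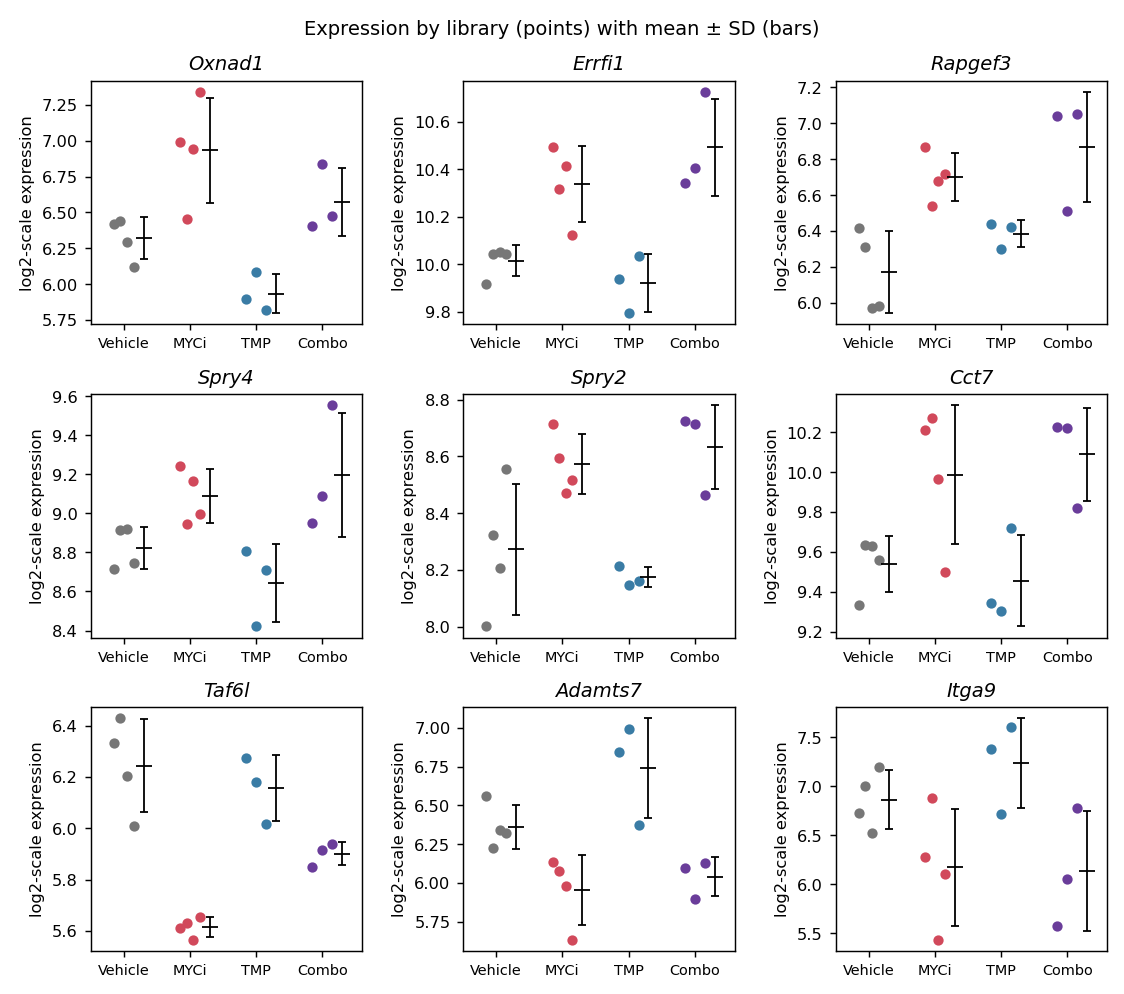
Expression of 9 leading genes on the log2 scale (vertical axes, which do not start at 0 and differ between panels) in the vehicle, MYCi975 (MYCi), TMP195 (TMP) and combination (Combo) libraries. Points are libraries and bars are mean ± SD. In Oxnad1, Errfi1, Rapgef3 and Spry4 every library with MYCi975 lies above its controls, and in Taf6l and Adamts7 every one lies below; Spry2, Cct7 and Itga9 overlap in at least 1 background.

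On the lower side, Taf6l encodes a relative of the TAF6 subunit of TFIID that sits in the SAGA histone acetyltransferase complex. Its level was 6.33, 6.43, 6.20 and 6.01 with vehicle against 5.61, 5.63, 5.57 and 5.66 with MYCi975, and 6.27, 6.18 and 6.02 with TMP195 against 5.85, 5.92 and 5.94 in the combination. The MYCi975 libraries were close together and well below vehicle, whereas the combination lay only just below TMP195. The difference was -0.47 (SE 0.10, 95% interval -0.69 to -0.25), -0.63 without TMP195 and -0.26 with it. In the list of 19 SAGA subunits, also added after the values were seen, 6 were higher and 4 lower in both backgrounds. Of all tested genes 23.5% were higher and 20.7% lower in both. The list's median was 0.02.

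Since MYC and MAX bind the E-box CACGTG, RefSeq promoters were searched for it. The motif, which reads the same on both strands, stood in 7.15% of all promoter windows and in 1110 of the 9570 tested genes with a window (11.6%). Genes with the motif had a median difference of 0.0074 and those without it 0.0012. Unadjusted p under 0.05 was reached by 2.34% of the genes with it and 2.84% of those without. Of the 28 leading genes 22 had a window, and the motif stood in 1 of the 15 higher ones (AW549877) and in 1 of the 7 lower ones (Taf6l). The Taf6l stretch is shown as the one lower gene with the motif: chr19:8786317-8786566 on the minus strand of GRCm38.p6, the 250 bases before the start site, with the E-box in capitals 116 bases before it.
Taf6l: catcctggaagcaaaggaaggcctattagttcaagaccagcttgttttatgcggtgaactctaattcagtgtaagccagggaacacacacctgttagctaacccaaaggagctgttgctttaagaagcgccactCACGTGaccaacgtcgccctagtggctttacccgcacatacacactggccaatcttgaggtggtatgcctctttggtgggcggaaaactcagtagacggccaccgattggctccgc
The presence of the letters does not show that MYC bound this promoter in these tumors.

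Adamts7, a secreted metalloprotease of cartilage and vessel wall matrix, was 6.56, 6.22, 6.34 and 6.32 with vehicle against 6.13, 6.08, 5.98 and 5.63 with MYCi975. It was 6.85, 6.99 and 6.37 with TMP195 against 6.09, 5.90 and 6.13 in the combination. All libraries given MYCi975 lay below their controls, and the difference was -0.53 (SE 0.12), -0.40 without TMP195 and -0.70 with it. Itga9, the alpha 9 integrin subunit that pairs with beta 1, had a wider gap and a wider spread. It was 6.73, 7.002, 6.53 and 7.20 with vehicle, 6.28, 6.88, 5.44 and 6.10 with MYCi975, 7.38, 6.72 and 7.60 with TMP195 and 5.57, 6.05 and 6.78 in the combination. MYCi975 replicate 2 and combination replicate 3 lay within the range of their controls, and the difference was -0.86 (SE 0.23).

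Atp6v0a2, a membrane subunit of the vacuolar proton pump, was 8.42, 8.37, 8.02 and 8.35 with vehicle against 8.07, 7.46, 7.67 and 7.81 with MYCi975, and 8.30, 8.74 and 8.51 with TMP195 against 7.84, 7.88 and 8.48 in the combination. One library of each treated group lay within its control range, and the difference was -0.50 (SE 0.13). Over 16 subunits of the pump, a list added after the values were seen, 1 was higher and 2 were lower in both backgrounds (23.5% and 20.7% of all tested genes). Opposite signs were seen in 13. The list's median was 0.11 without TMP195, where 14 were higher, and -0.21 with it, where 1 was higher. Without MYCi975 replicate 2, 8 subunits were lower in both. Ephb6, an Eph receptor whose kinase domain is inactive, had a mean of 4.75 with MYCi975 and 5.38 without, and was at the floor in MYCi975 replicate 2. Its difference was -0.63, and -0.50 without that library, the smallest size with 1 library left out. Near the floor the scale can also make a fold look smaller. The remaining lower genes chosen by smallest p included Fam220a, whose symbol is shared by 2 identifiers (-0.90). Fam220a had a mean of 5.12, not far above the floor. It was 5.81, 4.68, 4.62 and 6.45 with vehicle and 4.53 to 4.87 with MYCi975, so these groups overlapped. The TMP195 and combination libraries did not. The others were the magnesium channel Trpm6 (-0.66), the vesicle transport gene Sytl2 (-0.55), the AMPA receptor subunit Gria3 (-0.47) and the endoplasmic reticulum nucleotide transporter Slc35b1 (-0.26). Man1b1, a mannosidase that trims glycans of misfolded proteins, was below its controls in all libraries and differed by -0.28.

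The remaining higher genes had differences between 0.12 and 0.56. Dnhd1 differed by 0.56, Dtnb, which encodes beta-dystrobrevin, by 0.40, and the chromatin remodeler Smarcad1 by 0.30. Among those without overlap, Slc22a15 differed by 0.37, Nat14 by 0.35, AW549877 by 0.27, Ppdpf by 0.25, the SUMO protease Senp2 by 0.24 and the deubiquitinase Usp15 by 0.12, with an interval of -0.03 to 0.27 for the last. In Slc22a15, MYCi975 replicate 2 was at 6.57 while the other MYCi975 libraries were at 5.56 to 5.57.

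Among the pathway lists, the heat shock chaperones, which refold damaged proteins, had the highest median difference, 0.22, with 9 of 13 tested members higher in both backgrounds (23.5% of all tested genes) and 1 lower. Unadjusted p under 0.05 was reached by 4 members, all higher (1.52% of all tested genes): Hspa1b, an inducible HSP70 gene, by 0.48, the co-chaperones Dnaja1 by 0.36 and Dnajb4 by 0.26, and Bag3, which joins HSP70 to autophagy, by 0.22. Dnaja1 was 9.35, 9.66, 9.10 and 9.28 with vehicle, 9.82, 9.82, 9.53 and 9.72 with MYCi975, 9.05, 8.64 and 9.43 with TMP195 and 9.69, 9.28 and 9.12 in the combination, so the groups overlapped in both backgrounds. Hspa1a and Hspa1b are near-identical copies and their single values are uncertain. The constitutive Hspa8 differed by 0.07 and Hsp90ab1 by 0.12. The mean over the list, each gene centered on its mean, ran from -0.18 to 0.03 in vehicle and from 0.09 to 0.27 with MYCi975, but from -0.39 to 0.04 with TMP195 and from -0.21 to 0.14 in the combination. No member passed the adjusted threshold, and with any 1 library left out the list median lay between 0.19 and 0.26. The count of 9 was 6 without TMP195 replicate 1.

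In the lists closest to MYC itself the differences were small. Myc differed by 0.11 (95% interval -0.12 to 0.33), with 8.69 to 9.27 in vehicle, 8.86 to 9.42 with MYCi975, 8.96 to 9.15 with TMP195 and 8.98 to 9.11 in the combination. Its partner Max differed by 0.22 (interval -0.001 to 0.44), with 0.28 without TMP195 and 0.13 with it. Of the 11 tested genes of the MYC and MAX network 5 were higher in both backgrounds and 0 lower, beside 23.5% and 20.7% of all tested genes, the shares against which the other counts below stand too. Of 50 genes known to respond to MYC, 23 were higher in both and 7 lower in both, with a median of 0.04 (0.01 without TMP195 and 0.09 with it) and 1 member with unadjusted p under 0.05. Without MYCi975 replicate 3 the 23 became 11 and the median 0.0044. Of 24 genes of RNA polymerases I and III, which make ribosomal and transfer RNA, 14 were higher in both and 3 lower, with a median of 0.08, led by Taf1b and Polr3b at 0.19 each, and without MYCi975 replicate 3 the 14 became 9. The 81 cytosolic ribosomal protein genes, uncertain as single genes because of near-identical copies, had 8 higher and 19 lower in both, with a median of -0.05. Those counts had no stable size: with 1 library left out the lower one ran from 2 (without TMP195 replicate 2) to 57 (without combination replicate 2) and the higher one from 1 (without vehicle replicate 1) to 28 (without MYCi975 replicate 2). The median ran from -0.15 to 0.030 (without combination replicate 3) and was 0.042 with library weights. DNA replication had 9 higher and 2 lower of 31, with Rrm2, a ribonucleotide reductase subunit, at 0.30 and the helicase subunit Mcm2 at 0.31. Mitosis had 3 of 26 on either side. In each of these lists 20 genes had opposite signs in the 2 backgrounds, while 44.2% of all tested genes had the same sign. Without and with TMP195 the medians were -0.08 and 0.12 for DNA replication and -0.10 and 0.14 for mitosis. Over both backgrounds the list medians were 0.01 and 0.02. With 1 library left out, the higher counts ran from 4 to 13 for DNA replication and from 1 to 10 for mitosis. Both list medians over the 2 backgrounds were below 0 without MYCi975 replicate 3 (-0.040 and -0.030).

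Of 19 glycolysis genes 0 were higher and 11 were lower in both backgrounds (20.7% of all tested genes), with a median of -0.11, -0.02 without TMP195 and -0.25 with it. Gpi1 (-0.21) and Aldoa (-0.23), which encode the isomerase and aldolase of upper glycolysis, had unadjusted p under 0.05. Without combination replicate 1 the list's median was -0.06. The nuclear genes of respiratory complex I had 17 of 37 lower and 4 higher in both, and those of complexes II to V 18 of 42 lower and 3 higher, each with a median of -0.05. With library weights the complex I median was 0.011. The 13 protein-coding genes of the mitochondrial genome had 6 lower and 0 higher in both, with a median of -0.16, but their list mean ran from -0.49 to 1.19 within the vehicle group alone. With 1 library left out, the lower count ran from 0 (without MYCi975 replicate 3) to 13 (without vehicle replicate 1), the higher count reached 7 (without combination replicate 3), and the median was -0.35 with TMP195 replicate 1 left out and 0.027 with vehicle replicate 4 left out. The mitochondrial ribosome (13 higher and 20 lower of 78) and the tricarboxylic acid cycle (2 higher and 6 lower of 18) had medians of -0.02 and -0.03. Fatty acid oxidation had 3 higher and 3 lower of 17 in both, with a median of -0.01, and mitochondrial chaperones and proteases 4 higher and 3 lower of 14, with a median of 0.0076. The NRF2 antioxidant response had 8 of 19 lower in both and 0 higher, with G6pdx at -0.22 and Prdx1 at -0.16. Its median was -0.01 without TMP195, where 9 of 19 were higher, and -0.22 with it, where 2 were higher.

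**Figure D3:**
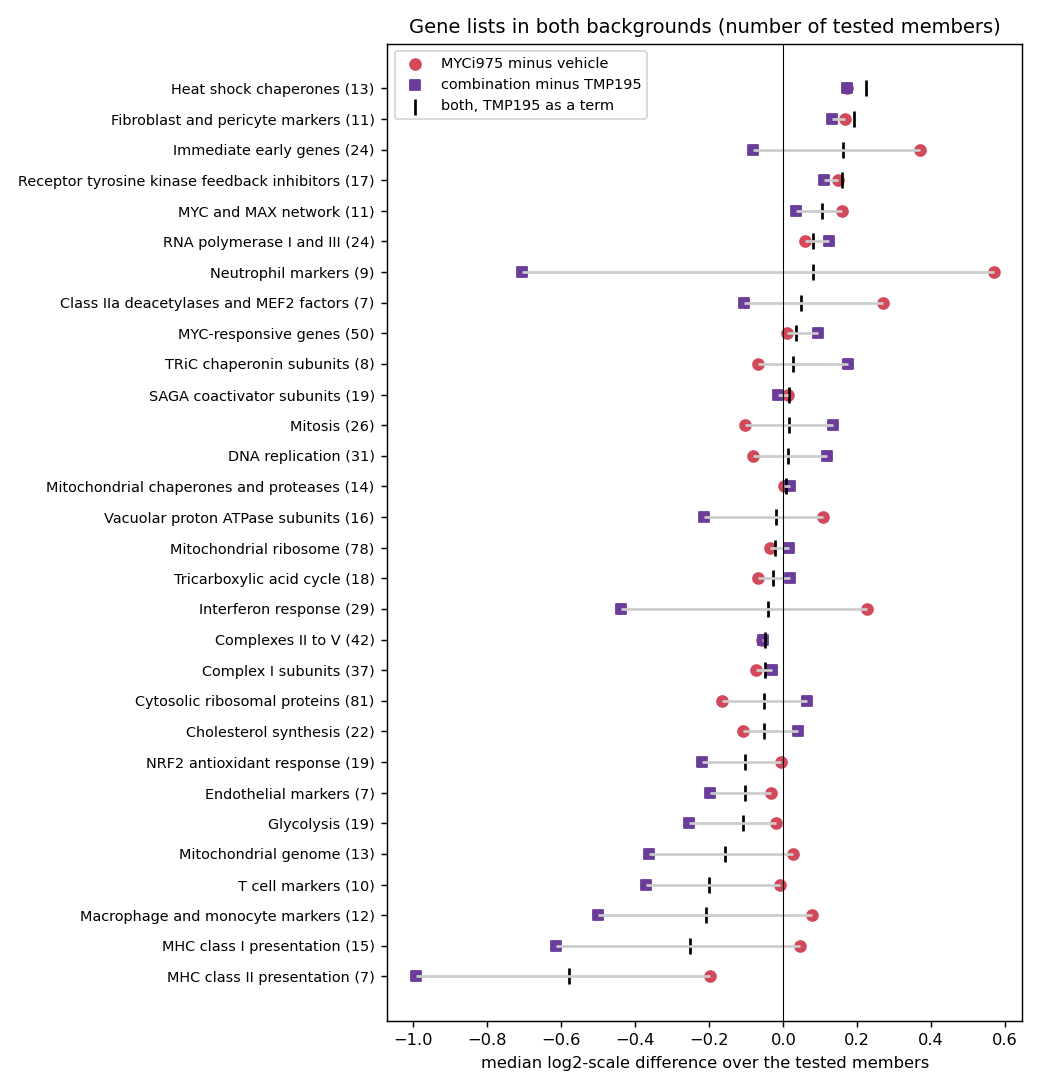
Median log2-scale difference over the tested members of 30 gene lists (horizontal axis), with the number of tested members in parentheses. Red circles are MYCi975 against vehicle, purple squares the combination against TMP195 and black ticks the difference over both with TMP195 as a term. Heat shock chaperones, fibroblast markers and the list chosen after the values were seen (receptor tyrosine kinase feedback inhibitors) lie on the same side in both backgrounds, and the 4 lists of neutrophil, macrophage, interferon and MHC class I genes lie on opposite sides, among others.

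Antigen presentation genes of MHC class II, carried mainly by macrophages, dendritic cells and B cells, were lower in both backgrounds for all 7 tested members (20.7% of all tested genes), with a median of -0.58, -0.20 without TMP195 and -0.99 with it. Without MYCi975 replicate 3 only 2 members were lower in both. Ciita, the master regulator of these genes, was the 1 member with unadjusted p under 0.05, at -0.58, and differed alike without TMP195 (-0.52) and with it (-0.65). Its level was 7.16, 6.14, 6.95 and 7.15 with vehicle, 6.42, 7.05, 5.82 and 6.03 with MYCi975, 6.13, 6.70 and 7.53 with TMP195 and 5.50, 6.50 and 6.40 in the combination, and the groups overlapped in both backgrounds. H2-Ab1 differed by -0.76, with -0.24 and -1.45 in the 2 backgrounds. The members rise and fall together between libraries, so 7 of 7 is not 7 separate observations: the list mean ran from -0.40 to 0.58 within vehicle and from -0.20 to 1.19 within TMP195. Ptprc differed by -0.20 over both backgrounds (0.24 without TMP195, -0.80 with it). Its level was 10.97, 10.26, 10.68 and 10.49 with vehicle and 10.87, 12.07, 10.09 and 10.35 with MYCi975. Without MYCi975 replicate 2, the highest of these, the Ptprc difference over both backgrounds was -0.46. In the main effect 10 of 12 macrophage and monocyte markers were lower, beside 6741 of all 13711 tested genes. In both backgrounds 5 of them were lower (1 without vehicle replicate 3 and 10 without MYCi975 replicate 2). The mean over these 12 markers ran from -0.28 to 0.40 in vehicle, -0.35 to 0.90 with MYCi975, -0.25 to 0.72 with TMP195 and -0.48 to -0.20 in the combination. The part of leukocyte content in the MHC class II difference was not tested.

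Other immune genes were counted by whether the 2 backgrounds had opposite signs, where 44.2% of all tested genes had the same sign and the rest, the larger part, had opposite ones. All 9 tested neutrophil markers were higher with MYCi975 in the absence of TMP195 and lower in its presence, with medians of 0.57 and -0.71. Genes of 1 cell type can vary together between libraries, so 9 of 9 is not 9 separate observations. The mean over these markers ran from -0.55 to 0.05 in vehicle and from -0.33 to 1.41 with MYCi975, so those groups overlapped. It ran from -0.24 to 0.42 with TMP195 and from -0.64 to -0.34 in the combination. Of 29 interferon response genes 23 were opposite, with medians of 0.23 and -0.44. Without MYCi975 replicate 2, 21 of the interferon genes were lower in both. Cd274, which encodes PD-L1, differed by 0.21 without TMP195 and by -0.96 with it. Its level was 9.27, 8.97, 9.06 and 8.74 with vehicle and 9.37, 10.40, 8.13 and 8.99 with MYCi975, where replicate 2 stood far above the others. The Cd274 difference over both backgrounds was -0.29, and -0.54 without that library. The interaction, tested in limma, had 656 genes with unadjusted p under 0.05 and 0 past the adjusted threshold (smallest adjusted p 0.911). Hdac5, a target of TMP195, was among the 13 genes with unadjusted p under 0.05 in both backgrounds in opposite directions, at 0.32 and -0.32. Its level was 7.93, 7.80, 8.06 and 7.79 with vehicle, 8.18, 8.22, 8.23 and 8.25 with MYCi975, 8.63, 8.04 and 8.42 with TMP195 and 7.91, 8.04 and 8.17 in the combination. T cell markers had 5 of 10 lower in both backgrounds and 0 higher, led by the kinase gene Lck at -0.32, with 3 lower without MYCi975 replicate 3 and 10 without MYCi975 replicate 2. Of 11 fibroblast and pericyte markers 7 were higher in both and 0 lower, with a median of 0.19 that was 0.08 without vehicle replicate 1, and the 7 became 3 without combination replicate 1. Immediate early genes, which respond within minutes to stimulation or tissue handling, had 9 of 24 higher in both and 14 with opposite signs. Their median was 0.37 without TMP195, where 23 were higher, and -0.08 with it, where 9 were higher. Over both backgrounds it was 0.16, and 0.01 without MYCi975 replicate 2.

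The agreement between backgrounds depended on 1 library more than on any other. Without MYCi975 replicate 2, the share of genes with the same sign was 53.2%, the correlation across genes was 0.15 in place of -0.17, and genes without overlap numbered 19 higher and 12 lower. Leaving out any other library gave a share between 41.3% (without MYCi975 replicate 3) and 48.8% (without TMP195 replicate 3). MYCi975 replicate 2 and TMP195 replicate 3 had the highest Ptprc, 12.07 and 11.45, and without both of them the share was 54.8% and the correlation 0.15. The part of leukocyte content in this was not tested. Among the 28 leading genes 27 had unadjusted p under 0.05 without MYCi975 replicate 2, and their signs were the same in every setting tried. They were picked from these same libraries for small p with equal signs or for no overlap, which largely fixes that outcome. It therefore adds no support.

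**Figure D4:**
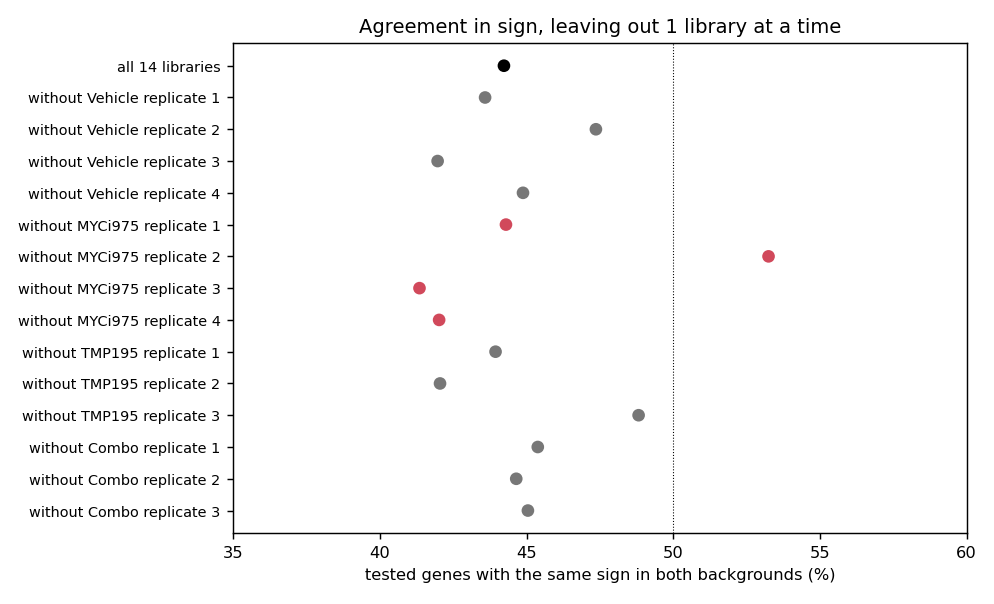
Percentage of tested genes with the same sign in both backgrounds (horizontal axis, starting at 35%) with all 14 libraries (black) and with each library left out in turn (red for MYCi975 libraries, gray for others). The dotted line marks 50%. The share is 44.2% with all libraries and passes 50% only without MYCi975 replicate 2, at 53.2%.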

How the data were processed

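RNA was measured in 14 libraries of LLC1 tumors. The authors deposited log2-scale values after a variance-stabilizing transformation, as 1 table of 21152 genes, per the file headers and the table's name. Salmon, without a version, and hg38 are named in the submitters' processing notes. That build is human while the identifiers are mouse Ensembl IDs, so the true build could not be settled, and the only coordinates printed are those of RefSeq promoters. Library preparation used a stranded total RNA kit, per the labels' protocols. Steps before the transformation are not stated there. The values do not lie on steps that would give back reads, so depth is unknown and no count test was run. Of the IDs 20264 matched a symbol. For genes near the floor, the scale makes a fold look smaller than it was.

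A linear model with MYCi975 and TMP195 as 2 additive terms was fitted in limma 3.58.1 (R 4.3.3) to the 14 libraries (11 residual and 5.09 prior degrees of freedom, moderation along an intensity trend). The differences in each background and the interaction came from a fit with 1 mean per group (10 residual degrees of freedom). Tests were two-sided with Benjamini-Hochberg adjustment over 13711 genes. Standard errors and 95% intervals come from the fit. The exact permutation test permuted MYCi975 within each TMP195 state. The additive fit weights the background without TMP195 more, since it holds 8 of the 14 libraries. The code was tested on simulated data.

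Genes were named by a rule: those past the threshold (none), the 10 smallest p per direction with the same sign in both backgrounds, up to 5 per direction without overlap, up to 2 members of each list described, and Myc, Max, Hdac4, Hdac5, Hdac7, Hdac9, Cd274 and Ptprc. Predicted genes and pseudogenes were left out. The other genes without overlap, Spry1 and further list members were added after the values were seen. There were 42 lists and 5 more added after the values were seen. The comparison, the rule and the lists were chosen with earlier results of these data known. Alternatives covered filters, moderation, scaling, library weights, the model and each library left out in turn. Promoters were RefSeq windows of GRCm38.p6, from 250 bases before to 50 after a start.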

Additional observations from a re-analysis of the deposited data

Results flagged for a closer look

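Of 178 groups of 4 libraries looked at, 2 for each of the 89 named genes, 11 had 1 library whose gap to its nearest neighbor exceeded Dixon's 95% critical share of the group's range. Chance flags about 1 in 20 groups. In the MYCi975 group, Hdac9 was low in replicate 4 at 5.51 (others 6.03 to 6.11), the malate dehydrogenase gene Mdh2 was high in replicate 3 at 9.70 (others 9.28 to 9.32), and Slc22a15 was high in replicate 2 at 6.57 (others 5.56 to 5.57). In the vehicle group, replicate 4 was low for Senp2 at 8.22 (others 8.49 to 8.52), Tap2 at 7.48 (others 7.90 to 7.96), Nat14 at 5.26 (others 5.58 to 5.63) and Gpi1 at 11.20 (others 11.27 to 11.28). The same library had Rpl6l at 4.05, the floor, with the others at 5.32 to 5.53. Vehicle replicate 1 was low for Errfi1 at 9.92 (others 10.04 to 10.05) and high for Polr3b at 7.90 (others 7.49 to 7.56). Vehicle replicate 3 was low for AW549877 at 7.69 (others 7.93 to 7.98). The low vehicle values of Senp2, Nat14, Errfi1 and AW549877 lie on the side that widens their difference with MYCi975.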

How the results depend on the processing

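No gene passed the adjusted threshold in the main effect, in either background or in the interaction under any alternative run for it or with any library left out. The alternatives numbered 11 for the main effect, 10 for each background and 9 for the interaction, and 0 of 2288 recomputed values of named genes passed. The smallest adjusted p of the main effect in limma was 0.173 without MYCi975 replicate 2, 0.207 with library weights, 0.380 without MYCi975 replicate 4, and 0.544 without the 2 libraries with the highest Ptprc, an alternative added after seeing the data. Of the 89 named genes 3 changed sign in any setting, and of the 28 leading genes, picked from these same libraries, 0 did. Retnlg (0.20) was at -0.011 with library weights and -0.076 without the 2 libraries with the highest Ptprc. Hdac5 (0.05) was at -0.013 with library weights. Hdac4 (0.02) was at -0.086 with library weights, -0.016 with 1 mean per group and -0.040 without the 2 libraries with the highest Ptprc, and ran from -0.042 to 0.092 when 1 library was left out. The cause was not tested. The number of genes with unadjusted p under 0.05 ran from 263 to 668 over the alternatives and from 322 (without vehicle replicate 3) to 806 (without MYCi975 replicate 2). Those with p under 0.05 in both backgrounds in 1 direction ran from 12 to 35 (library weights) and from 6 to 24. Without a filter on low values, 655 genes had unadjusted p under 0.05 in the main effect, 811 without TMP195 and 23 in both, and 6 lay lower without overlap. For the background without TMP195 the count of 457 was 812 without MYCi975 replicate 3 and 750 without MYCi975 replicate 4, and for that with TMP195 the count of 603 was 253 without combination replicate 1, 377 without TMP195 replicate 3 and 974 without MYCi975 replicate 2. For the interaction the count of 656 was 358 without combination replicate 1, 399 without TMP195 replicate 3 and 1091 without MYCi975 replicate 3. With library weights the share with the same sign was 50.7%. The median of the neutrophil markers (0.08) was -0.20 without MYCi975 replicate 2, and that of the interferon genes (-0.04) was 0.04 without MYCi975 replicate 3. With the replicate number as a block, 0 genes passed and the smallest adjusted p was 0.9996. The numbers do not pair the libraries: deviations of 19 same-numbered pairs correlated at -0.30 to 0.21, with 6 of 19 over 0.1. Depth is unknown, so what sequencing depth limits cannot be stated, and the median unadjusted interval reached 0.27 to either side. Passing the adjusted threshold depends on a gene's standard error as well as on the size of its difference. Neither Fam220a at -0.90 (SE 0.24) nor Oxnad1 at 0.63 (SE 0.13) passed.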

Other observations

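Of the 5 tested markers of natural killer and cytotoxic cells, 4 were lower with MYCi975 in both backgrounds (20.7% of all tested genes). The receptor gene Klrk1 differed by -0.51, the granzyme gene Gzmb by -0.47 and the perforin gene Prf1 by -0.39, and Eomes, a transcription factor of these cells, by -0.05. None of these differences passed the adjusted threshold, and the larger part lay in the background with TMP195, where Ptprc was lower too (-0.80). The list mean ran from -0.53 to 0.73 within the MYCi975 group alone. Of 20 hypoxia response genes, 2 were higher and 7 lower in both backgrounds, with a median of -0.05. Pdk1, which diverts pyruvate from the mitochondria, was at -0.23.

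Without MYCi975 replicate 2, a setting looked at after the values were seen, the leading 5 genes by p on either side were Oxnad1, Errfi1, Rapgef3, Sike1 and Spry4 among the higher genes and Itga9, Adamts7, Capn5, Taf6l and Fabp5 among the lower. Sike1, which encodes a suppressor of the kinases TBK1 and IKK-epsilon, differed by 0.61 there, the calpain protease gene Capn5 by -0.46 and the fatty acid binding protein gene Fabp5 by -0.73. Their adjusted p in limma was 0.832.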
